A study of Mus musculus with 12 samples.

Results

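The mouse genes whose symbols start with Zfp, Zkscan or Zscan code mainly for zinc-finger proteins. Here 279 of them were described in NIH 3T3 cells, a line of immortalized mouse embryo fibroblasts. They were the genes of that name whose mean over the 12 libraries was 5 or more CPM (the usual depth-scaled count, a gene's count over the library's total), out of 448 genes so named among the 49671 genes listed. The mRNA decay factors of the Zfp36 family were left out. The members were thus chosen by a measured value, their mean CPM, so their level is a description and not a result. Just inside the limit were Zfp472 (5.12 CPM), Zfp775 (5.05 CPM) and Zfp874b (5.00 CPM), and just outside it Zfp882 (5.00 CPM), Zfp661 (4.85 CPM) and Zfp773 (4.83 CPM). Zfp874b was above and Zfp882 below the limit by less than the rounding.

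RNA-seq was carried out on 4 groups of 3 libraries each. Cells transfected with a control siRNA, or with an siRNA against total Lap2, were starved overnight in 0.3% FBS, or starved and then stimulated with 15% FBS for 45 min. Lap2 is the nuclear lamina-associated protein made from the Tmpo gene, and the siRNA was designed against its nucleoplasmic and its membrane-anchored isoforms alike. All groups thus carried an siRNA and had been through starvation. The model is a single cell line with a transient knock-down by a single siRNA sequence. The titles number the libraries consecutively across the groups and give no replicate number per condition. Replicates 1 to 3 of a condition were numbered here by that order. Nothing says that these came from separate cultures, so p-values measure the spread between these samples, which may be technical. Total counts were 18816519 to 23457484 per library in 0.3% FBS and 21191927 to 26265253 in 15% FBS for the control siRNA. Those for the Lap2 siRNA were 18026298 to 20535682 and 19230387 to 22838900 in the same order. A member had a median of 385.5 counts in a library and never fewer than 21, and all 279 members passed the filter on low counts.

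A C2H2 zinc finger is a short module in which a pair of cysteines and a pair of histidines hold a zinc ion, so that a helix of the module can read a few bases of DNA, and such fingers are usually strung in tandem. Many of these proteins start with a KRAB domain, which binds the corepressor Trim28 and through it brings histone methylation and silencing to transposons, imprinted loci and genes. Others have a SCAN domain, which pairs the proteins with each other, with or without a KRAB domain. The genes have multiplied by tandem duplication, and mRNAs of such regulators are often short-lived.

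The members were sorted by what their coding sequences hold. Of 276 members with a coding sequence in the annotation, 269 (97.5%) had at least 1 match to the C2H2 spacing, against 4.77% of the 13895 tested genes with a coding sequence. The median member had 10 fingers (range 0 to 36) in a protein of 586.5 residues, against 462 residues for all tested genes. A KRAB box was matched in 105 members, a SCAN domain in 23, and 142 had fingers and a match to neither domain. A looser pattern for the KRAB box, chosen after seeing the data, found it in 113 members outside the SCAN class. Genes with a SCAN match were put in that class with or without a KRAB box. No finger was matched in 6 members, Zfp503, Zfp703, Zfp365, Zfp330, Zfpl1 and Zfp839, and 3 (Zfp862-ps, Zfp469 and Zfp125) had no coding sequence in the annotation. The module that gives these genes their name is shown for 5 members that changed with serum, as the 84 bases that code for 1 of their fingers, read from GENCODE M21 coding sequences on GRCm38, with the codons of the pair of cysteines and the pair of histidines in capitals. Any pair of the 5 shared 47 to 61 of the 84 bases.
Zfp658: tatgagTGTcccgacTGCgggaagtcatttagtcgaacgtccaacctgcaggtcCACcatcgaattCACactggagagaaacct
Zkscan14: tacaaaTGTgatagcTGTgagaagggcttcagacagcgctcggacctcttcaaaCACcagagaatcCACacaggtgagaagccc
Zfp61: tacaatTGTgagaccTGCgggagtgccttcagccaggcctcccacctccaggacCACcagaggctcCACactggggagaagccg
Zfp568: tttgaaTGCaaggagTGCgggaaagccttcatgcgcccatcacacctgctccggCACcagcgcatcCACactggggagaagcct
Zfp948: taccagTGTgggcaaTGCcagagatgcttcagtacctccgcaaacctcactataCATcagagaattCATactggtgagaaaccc

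These stretches lie at chr7:43573284-43573367, plus strand, chr5:145195658-145195741, minus strand, chr7:24291627-24291710, minus strand, chr7:30022886-30022969, plus strand, and chr17:21587187-21587270, plus strand, each within a coding exon. Because the fingers of neighbouring genes resemble each other, reads can be assigned to the wrong copy. Of the 279 members, 60 shared at least 10% of the 50-base windows of their exons with another gene, 70 overlapped an exon of a gene on the opposite strand and 24 an exon on the same strand. Zfp593 shared 66.9% of its windows, with E130218I03Rik on the opposite strand, and Zfp141 14.6%, Zfp775 12.6%, Zfp703 10.6% and Zfp367 10.2%, so that their values are uncertain where the counting split or joined such reads.

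The siRNA target was compared first. Tmpo had normalized counts (counts scaled to a common library size by TMM factors) of 2775, 2805 and 2885 with control siRNA in 0.3% FBS, 3264, 3243 and 3019 with control siRNA in 15% FBS, 982, 1176 and 1093 with Lap2 siRNA in 0.3% FBS and 767, 745 and 607 with Lap2 siRNA in 15% FBS. All Lap2 siRNA libraries lay below all control siRNA libraries. The log2 fold change (log2FC, ± SE) of Tmpo was -1.38 ± 0.08 (adjusted p = 8.7e-16) in 0.3% FBS and -2.17 ± 0.08 (adjusted p = 3.8e-19) in 15% FBS (quasi-likelihood test of edgeR, p adjusted after Benjamini and Hochberg over 18668 genes). The two-sided exact permutation test gave p = 0.1 in each condition, the smallest that 3 libraries against 3 allow. Of 10 fibroblast markers, all had a mean of 5 CPM or more. Together they took 42100 CPM in serum-starved and 39400 CPM in serum-stimulated control siRNA treated cells, against 31000 and 30300 CPM in Lap2-depleted cells (27400 to 42700 CPM over the libraries). Fn1 was the most abundant at 8590 CPM. Of 5 markers each of leukocytes, epithelium, endothelium, muscle and adipocytes, none reached 5 CPM. The 5 leukocyte markers together took at most 4.44 CPM in a library (mostly Cd68, at a mean of 1.90 CPM). It was at most 1.74 CPM for epithelium (Krt14), 3.00 CPM for endothelium (Vwf), 0.850 CPM for muscle (Des) and 0.273 CPM for adipocytes (Fabp4). The lowest library had 1.60, 0.579, 1.11, 0.0944 and 0 CPM of these 5 lists. Cd3e, Krt18, Myod1, Myog, Ckm, Plin1, Cidec and Lep were at 0 in every library. The fibroblast marker sum was lower with Lap2 siRNA, and 7 of the 10 markers had a lower mean CPM with Lap2 than with control siRNA in 0.3% FBS and 8 in 15% FBS. In 0.3% FBS Col3a1 went from 10600 CPM with control to 3590 CPM with Lap2 siRNA, Col1a1 from 7780 to 4900 CPM and Pdgfra from 1560 to 550.0 CPM. The 3 with a higher mean were Fn1, which went from 7500 to 10500 CPM (and from 8600 to 7780 CPM in 15% FBS), Pdgfrb, from 340.0 to 406 CPM, and S100a4, from 32.2 to 47.6 CPM. The part of the marker sum in the Lap2 siRNA values of the zinc-finger genes was not tested. In bulk samples, fewer cells of a type and less RNA per cell cannot be told apart.

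Per kilobase of exon, the most abundant members were Zfp281 (33.9 CPM per kb), a pluripotency factor that binds GC-rich promoters, Zfp740 (25.4), Zfp706 (24.6), Zfp146 (23.7) and Zfp91 (23.5), a ubiquitin ligase of the NF-kappaB pathway. They were followed by Zfp948 (22.7), Zfp106 (22.5), an RNA-binding protein, Zfp503 (21.4), a transcriptional repressor of the NET family, Zfp207 (21.3), a Bub3-binding spindle protein, and Zfp637 (19.2). The median member had a mean of 18.6 CPM and the highest 236 CPM. As a group they took a small share of the reads, 0.890%, 0.929% and 0.917% of the counts in the 3 serum-starved and 0.675%, 0.663% and 0.641% in the 3 serum-stimulated control siRNA libraries. In Lap2-depleted cells the shares were 0.899%, 0.961% and 0.958% in 0.3% FBS and 0.714%, 0.730% and 0.716% in 15% FBS. With either siRNA, every library in 15% FBS had a lower share than every library in 0.3% FBS. The means were 0.912% ± 0.0197 and 0.660% ± 0.0173 with control siRNA, against 0.939% ± 0.0352 and 0.720% ± 0.00850 with Lap2 siRNA (SD, n = 3). As a share of the TMM-scaled library size, the scaling used for all tests, the fall with serum was smaller, from 0.857% to 0.895% down to 0.718% to 0.746% with control siRNA, and from 0.803% to 0.857% down to 0.749% to 0.760% with Lap2 siRNA. On that scale the order of the siRNAs in 0.3% FBS turned, with the Lap2 siRNA libraries below the controls, so no difference between the siRNAs was read from these shares.

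To see which zinc-finger mRNAs changed on serum stimulation, 15% and 0.3% FBS were compared in control siRNA treated cells. Of the 279 members, 192 (68.8%) fell and 29 (10.4%) rose (adjusted p under 0.05), where 13.9% of all 18668 tested genes fell and 15.6% rose. Among the 10384 tested genes with a mean of 5 CPM or more, 19.8% fell and 25.2% rose. The limit on the mean lets in members by their starved level, since 50 of the 279 had a mean of 5 CPM or more in 0.3% FBS and not in 15% FBS with control siRNA, and 0 the reverse. Among the 226 members with 5 CPM or more in every group, a limit that takes out genes that fall, 141 (62.4%) fell and 29 rose, where 18.4% of the 9824 tested genes of that kind fell. With no limit, 255 of the 386 tested genes so named (66.1%) fell and 31 rose. Both limits were added after seeing the data. The median log2FC was -0.53 for the members and -0.01 for all tested genes, so that the median member in 15% FBS was at 69.5% of its starved level. In 190 of the 192 members that fell, all 3 libraries in 15% FBS were below all 3 in 0.3% FBS. A log2FC under -1 was seen in 69 of those that fell, and one above 1 in 4 of those that rose. Among the 10384 genes of 5 CPM or more, 268 were called with a log2FC under -1 and 461 with one above 1. Of all members, 146 (52.3%) lay below a log2FC of -0.45, which is the 10th percentile of the 10384 genes with 5 CPM or more. Scaling to total counts in place of TMM, which lowered the median of all tested genes by 0.21, gave 227 lower and 15 higher members.

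**Figure D1:**
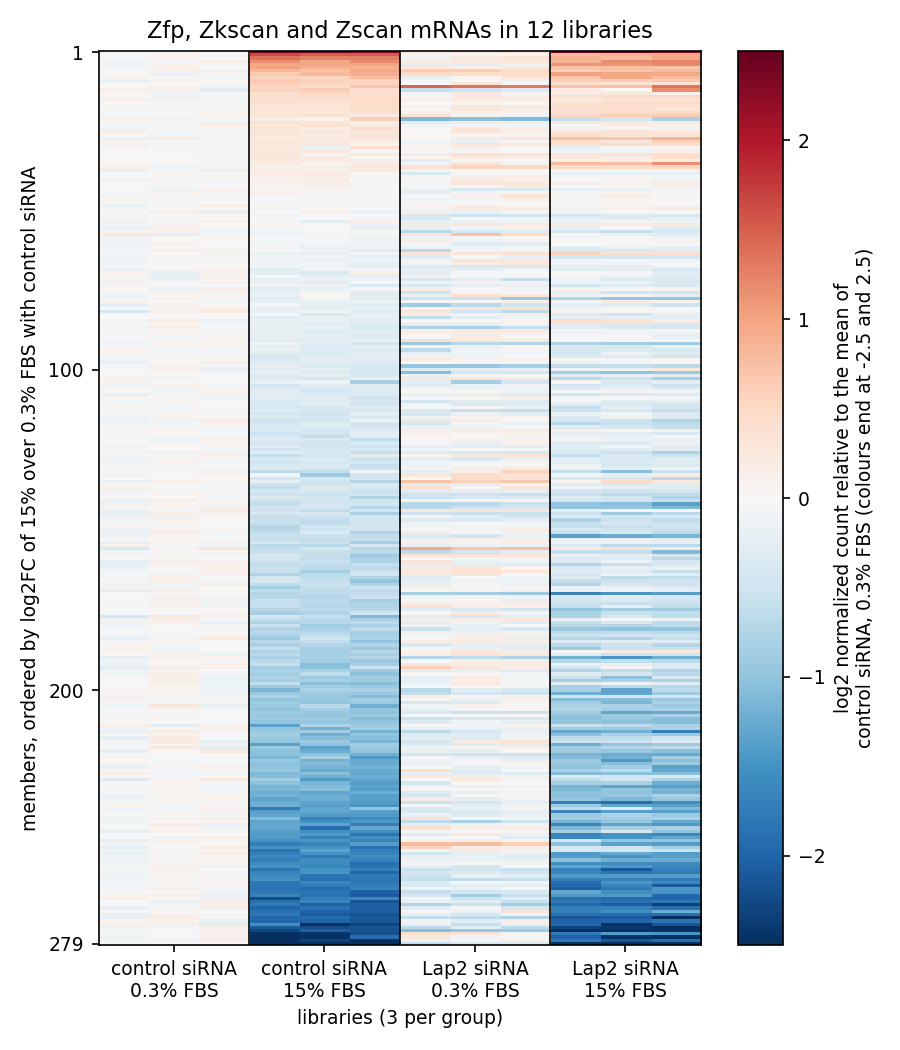
Heatmap of the 279 members (rows, ordered by the log2FC of 15% over 0.3% FBS with control siRNA) in the 12 libraries (columns, 3 per group), coloured by the log2 normalized count relative to the mean of control siRNA in 0.3% FBS. Most rows are blue, that is lower, in all 6 libraries in 15% FBS, and the 29 members that rose with control siRNA are at the top.

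**Figure D2:**
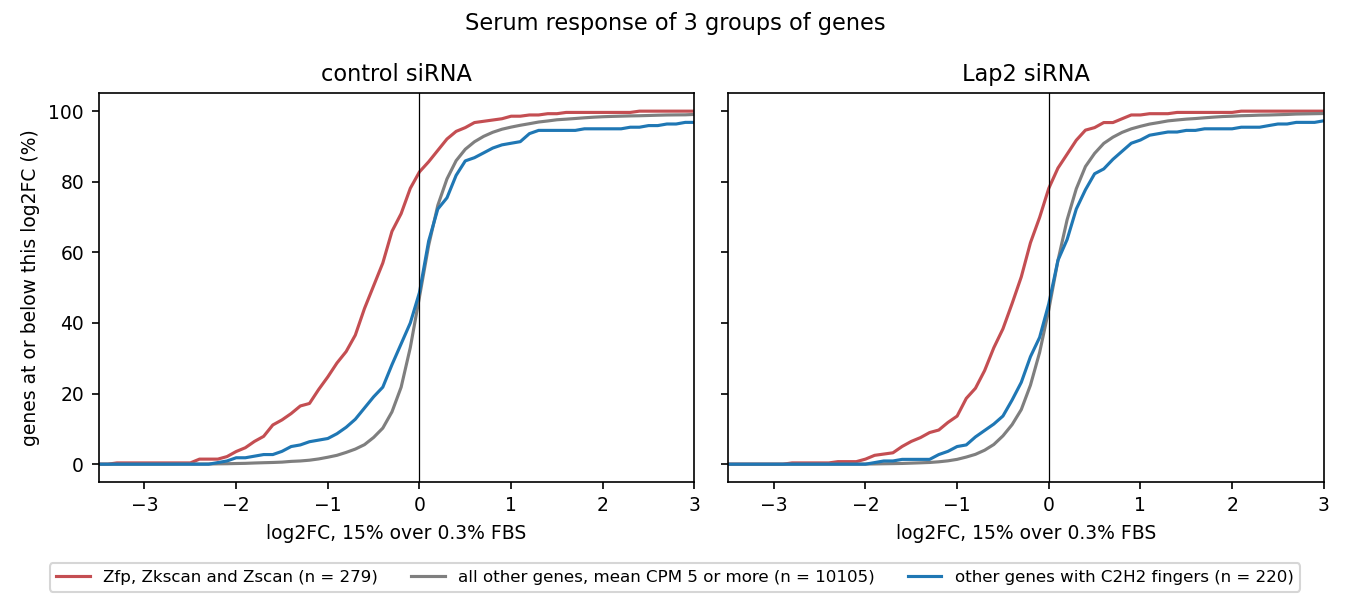
Cumulative share of genes (y axis, percent) at or below each log2FC of 15% over 0.3% FBS (x axis) with control siRNA (left) and Lap2 siRNA (right), for the 279 members, the 220 other genes with C2H2 fingers and all 10105 other genes with a mean of 5 CPM or more. The curve of the members lies to the left of the others, with medians of -0.53 and -0.33 against values near 0.

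The gene with the deepest fall was Zfp503, with normalized counts of 3753, 3688 and 3689 with control siRNA in 0.3% FBS, 394, 373 and 291 with control siRNA in 15% FBS, 2455, 2888 and 2877 with Lap2 siRNA in 0.3% FBS and 438, 451 and 273 with Lap2 siRNA in 15% FBS. The starved and stimulated libraries did not overlap with either siRNA, and the mean in 15% FBS was 9.51% of that in 0.3% FBS with control siRNA and 14.1% with Lap2 siRNA. Its log2FC was -3.39 ± 0.11 (adjusted p = 2.2e-22) and -2.83 ± 0.11 (adjusted p = 3.6e-20), respectively. The relative Zfp703, a repressor of the same NET family, had counts of 1075, 1122 and 1003 with control siRNA in 0.3% FBS, 309.7, 306 and 259 with control siRNA in 15% FBS, 709, 758 and 802 with Lap2 siRNA in 0.3% FBS and 434, 368 and 387 with Lap2 siRNA in 15% FBS. It fell as well, with a log2FC of -1.87 ± 0.09 (adjusted p = 7.1e-18) with control siRNA, against -0.93 ± 0.09 (adjusted p = 3.1e-10) with Lap2 siRNA.

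The next 4 genes by the size of the fall with control siRNA were Zfp658, Zkscan14, Zfp61 and Zfp41. Zfp658, with a KRAB box and 21 fingers, had 277, 277 and 330.1 normalized counts in 0.3% FBS and 50.6, 58.4 and 51.3 in 15% FBS with control siRNA, against 267, 287 and 328 and 84.3, 66.8 and 77.3 with Lap2 siRNA. Zkscan14, with a SCAN domain and 6 fingers, had 172, 189.7 and 205 and 21.3, 33.6 and 50.2 with control siRNA, against 227, 177 and 182 and 46.2, 33.9 and 31.9 with Lap2 siRNA. Starved and stimulated libraries of both genes stood well apart. The log2FC was -2.46 ± 0.15 (adjusted p = 1.5e-15) for Zfp658 and -2.46 ± 0.20 (adjusted p = 5.9e-12) for Zkscan14 with control siRNA, and -1.95 ± 0.14 (adjusted p = 2.7e-13) and -2.40 ± 0.20 (adjusted p = 1.2e-11) with Lap2 siRNA. Zfp61, with 8 fingers, went from 333, 333 and 371 to 58.6, 63.3 and 74.7 with control siRNA (log2FC -2.40 ± 0.14 (adjusted p = 7.1e-16)) and from 451, 433 and 353 to 103, 131 and 125 with Lap2 siRNA (-1.78 ± 0.13 (adjusted p = 2.1e-13)). Zfp41 went from 1009, 1057 and 1119.6 to 218, 259 and 233 with control siRNA (log2FC -2.17 ± 0.10 (adjusted p = 1e-18)) and from 509, 545 and 574 to 167, 135 and 124 with Lap2 siRNA (-1.94 ± 0.11 (adjusted p = 4.4e-16)). In Zfp41 the Lap2 siRNA libraries were also below the control siRNA libraries in each serum condition.

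Few zinc-finger mRNAs rose. Zfp281 had normalized counts of 1112, 1218 and 1141 with control siRNA in 0.3% FBS, 6228, 6294 and 5791 with control siRNA in 15% FBS, 1381, 1530.2 and 1576 with Lap2 siRNA in 0.3% FBS and 6168, 6346 and 5554 with Lap2 siRNA in 15% FBS, so that all 6 stimulated libraries were above all 6 starved ones. Its log2FC was 2.40 ± 0.07 (adjusted p = 4.9e-24) with control siRNA, against 2.01 ± 0.07 (adjusted p = 6.2e-22) with Lap2 siRNA. Zfp644, a protein that recruits the histone methyltransferases G9a and GLP, had 1272, 1404 and 1281 with control siRNA in 0.3% FBS, 4055, 3752 and 3807 with control siRNA in 15% FBS, 1401, 1256 and 1375 with Lap2 siRNA in 0.3% FBS and 2299.8, 2425 and 2547 with Lap2 siRNA in 15% FBS. It rose in both cell populations. It had a log2FC of 1.55 ± 0.07 (adjusted p = 3.8e-19) with control siRNA, against 0.85 ± 0.07 (adjusted p = 4.3e-12) with Lap2 siRNA. The stimulated libraries of the 2 siRNAs did not overlap. Zfp568, a KRAB protein that represses a placental Igf2 transcript in the mouse embryo, had 503, 536 and 522 with control siRNA in 0.3% FBS, 1350.5, 1251 and 1254 with control siRNA in 15% FBS, 483, 617 and 653 with Lap2 siRNA in 0.3% FBS and 968, 908 and 1029.9 with Lap2 siRNA in 15% FBS, and its log2FC was 1.30 ± 0.09 (adjusted p = 4.6e-14) and 0.73 ± 0.09 (adjusted p = 3.9e-08). Zfp948, also a KRAB gene, had 756, 781 and 869 and 1792, 1575 and 1822 normalized counts with control siRNA, against 913, 949 and 983 and 1451, 1811 and 1883 with Lap2 siRNA, with a log2FC of 1.11 ± 0.09 (adjusted p = 1e-12) and 0.86 ± 0.08 (adjusted p = 4.7e-10). Zfp593, a protein of ribosome biogenesis, had 204, 227 and 209 and 417, 423 and 432 with control siRNA, against 182, 182 and 194 and 459.7, 458 and 492 with Lap2 siRNA, with a log2FC of 0.99 ± 0.10 (adjusted p = 4.9e-10) and 1.34 ± 0.10 (adjusted p = 6.4e-13) (its exons overlap those of a gene on the other strand). Of these 5 genes, Zfp568 and Zfp948 hold a KRAB box.

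**Figure D3:**
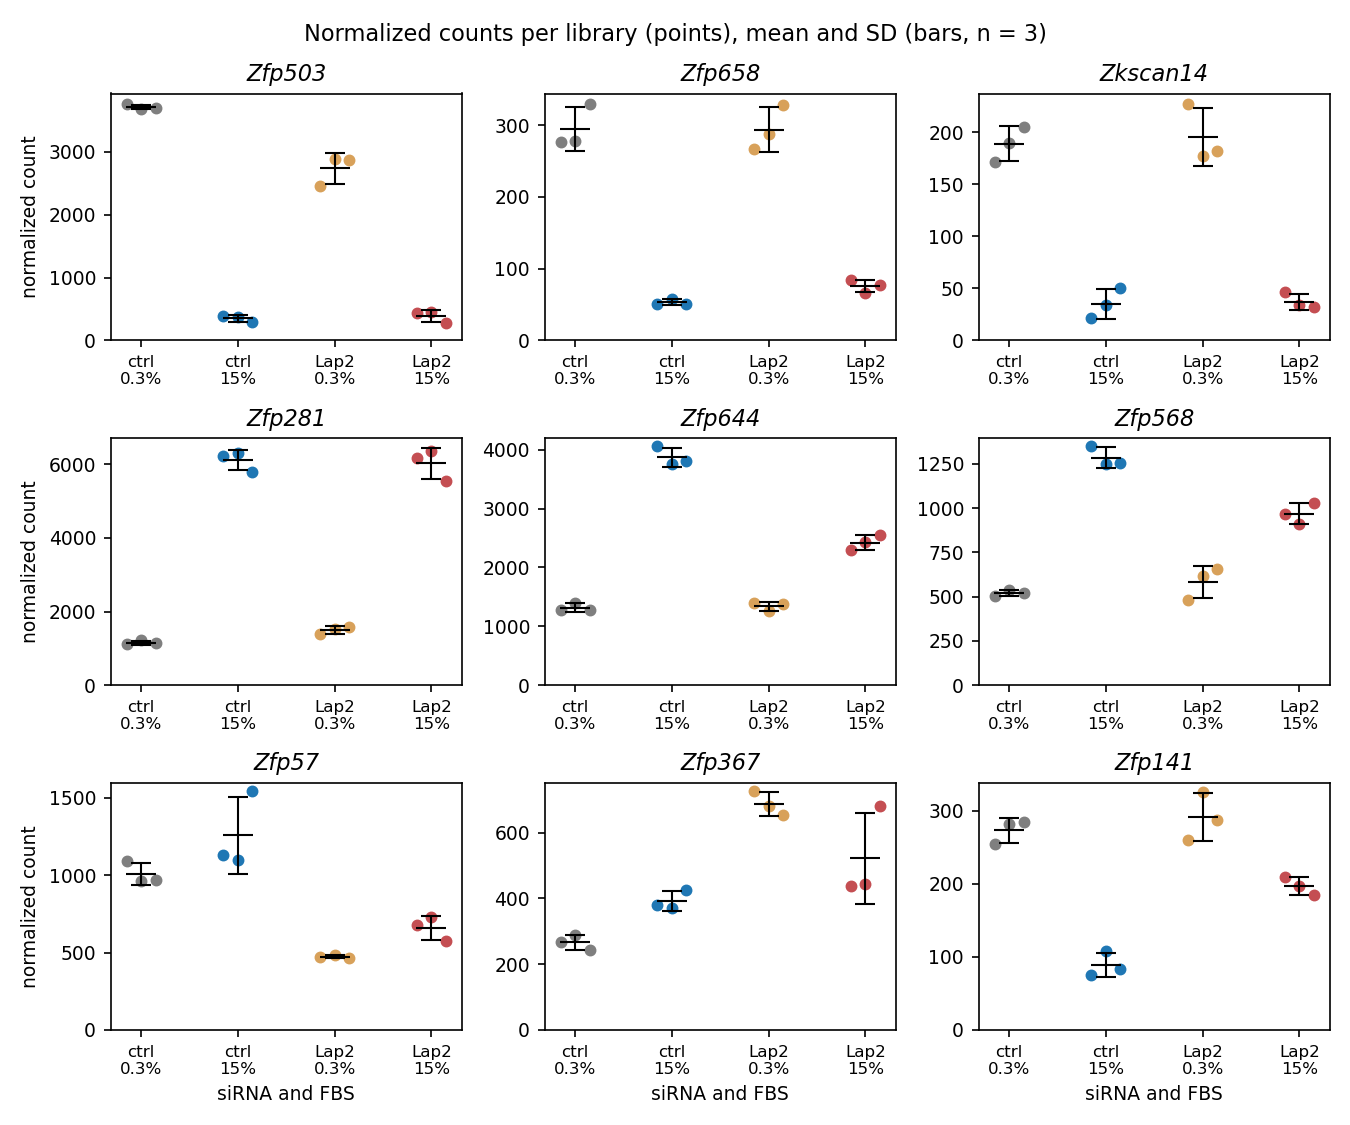
Normalized counts of 9 members (y axis, from 0) in the 4 groups (x axis: control (ctrl) or Lap2 siRNA, 0.3% or 15% FBS), with a point per library and bars for the mean and SD of 3 libraries. Zfp503, Zfp658 and Zkscan14 are low in both stimulated groups, and Zfp281, Zfp644 and Zfp568 are high there. Zfp57 differs between the siRNAs in both serum conditions, Zfp367 mainly in 0.3% FBS and Zfp141 in 15% FBS.

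The members that fell with control siRNA were counted by kind. Of 105 KRAB genes, 88 fell (83.8%) and 6 rose, with a median log2FC of -0.69. Of 23 SCAN genes, 18 fell (78.3%) and 1 rose (median -0.44), and of the 142 with fingers and a match to neither domain, 82 fell (57.7%) and 20 rose (median -0.34). The KRAB pattern fixes EW and several later residues and was read in a single coding sequence per gene, so it misses other boxes. This last class may thus hold KRAB genes, how many is not known, and the shares of the classes are uncertain to that extent. By the looser pattern, 95 of the 113 KRAB genes found outside the SCAN class fell (84.1%). With Lap2 siRNA the order was the same, with 78 (74.3%), 14 (60.9%) and 68 (47.9%) lower genes in the 3 classes. Of all tested genes, 14.9% were lower with Lap2 siRNA, and of those of 5 CPM or more 21.1%. With control siRNA, 13.9% of all tested genes and 19.8% of those of 5 CPM or more fell. Of members with 1 to 5 fingers, 27 of 56 fell with control siRNA (median -0.26), and of those with 6 to 10, 63 of 89 (-0.51). Of those with 11 to 15, 63 of 77 (-0.81), and of those with 16 or more, 34 of 47 (-0.69). In the same order, 10, 9, 5 and 3 members rose. These are counts over genes, which share libraries and descent, and no test was made over them. By comparison, the 220 other genes with C2H2 fingers and 5 CPM or more, which have other names, had 69 lower (31.4%) and 61 higher (27.7%) with control siRNA, with a median log2FC of 0.01. With Lap2 siRNA, 60 of them (27.3%) were lower and 78 (35.5%) higher.

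They were also counted by level, again with no test. When the members were split at mean CPM values of 12.8 and 28.9 into 3 sets of 93, 80 (86.0%), 69 (74.2%) and 43 (46.2%) fell with control siRNA, from the lowest to the highest set. Other genes in the same ranges of mean CPM fell in 443 of 1560 (28.4%), 603 of 2208 (27.3%) and 813 of 6337 (12.8%). The mean CPM takes in the stimulated libraries, so a gene that falls is moved towards the lower sets by its fall. Across the 279 members, the log2FC with control siRNA had a Spearman's rho of 0.53 with the mean CPM. Across the 276 with a coding sequence it had a rho of -0.29 with the number of fingers, as descriptions over genes read from the same libraries. The rho was 0.05 with the ATTTA pentamers per kb of 3' untranslated region (263 members) and -0.04 with the length of that region (276 members). The members had a median of 1.66 such pentamers per kb, against 1.40 for tested coding genes of 5 CPM or more, and a median 3' untranslated region of 1335 bases against 1019.

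**Figure D4:**
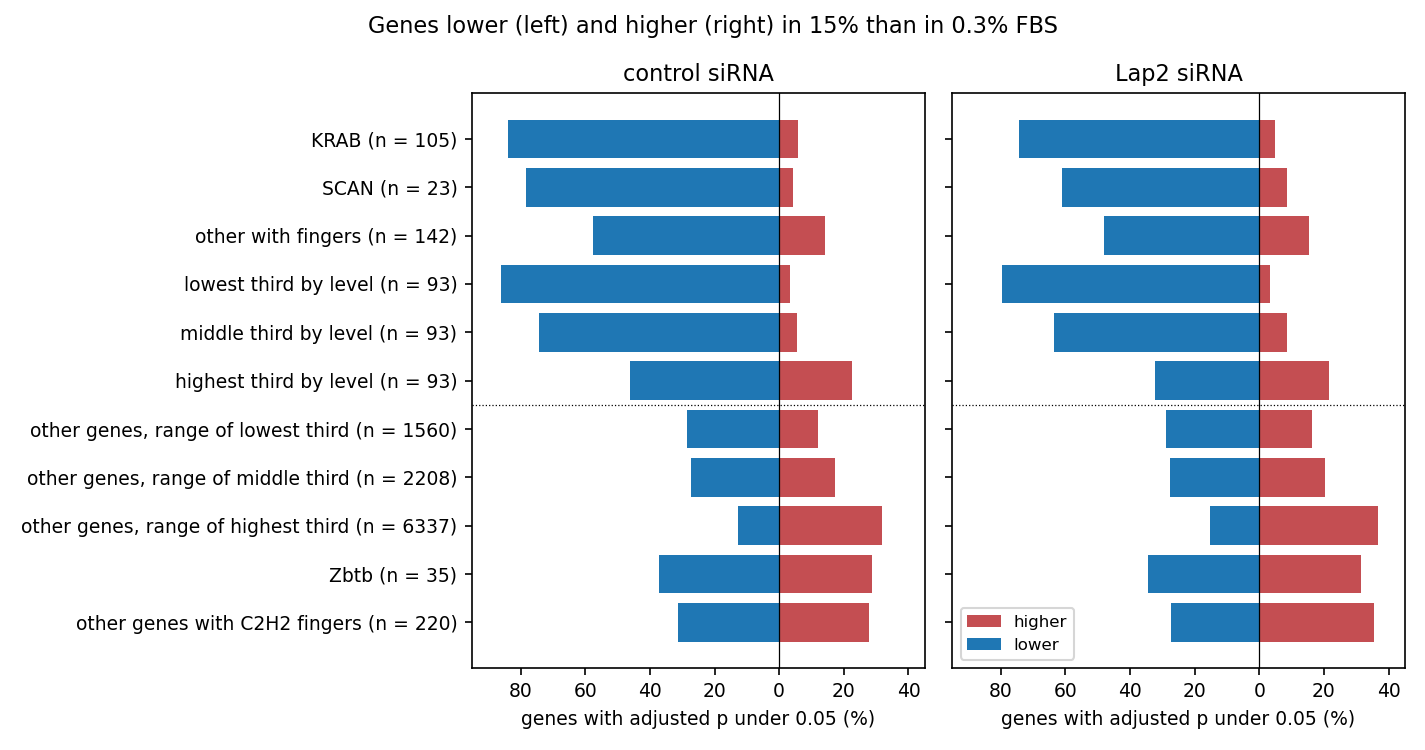
Percent of genes that were lower (bars to the left of 0) or higher (bars to the right) in 15% than in 0.3% FBS with control siRNA (left) and Lap2 siRNA (right), for members by class and by mean CPM, and for other genes below the dotted line. The lower share is 83.8% for KRAB members and 31.4% for the other genes with C2H2 fingers with control siRNA.

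The genes lay close together on a few chromosomes, with 64 members (22.9%) on chromosome 7, which holds 8.05% of tested genes, and 35 (12.5%) on chromosome 17, which holds 4.5%. Taking members with starts no more than 500 kb apart as neighbours, 143 members (51.3%) were in 25 runs of 3 or more. In these runs, 120 members fell with control siRNA (83.9%, median -0.77) and 9 rose, against 72 that fell (52.9%, median -0.27) and 20 that rose among the 136 others. With Lap2 siRNA, 108 and 55 fell. Of genes of 5 CPM or more, 19.8% fell with control siRNA and 21.1% with Lap2 siRNA, and the difference between the runs and the other members was not tested. The longest run, at chr17:21008903-23564238, held 19 members, of which 17 fell and 2 rose, and Zfp948 was one of those that rose. In the run at chr17:32765496-33631779, 10 of 11 fell. All 9 members fell in the runs at chr6:47835661-48623227 and chr7:127233061-127885996, and all 7 at chr13:67471513-67729173, with a median log2FC of -1.30. The median log2FC was above 0 in 2 of the 25 runs. In the run at chr7:43296197-43593235 (median 0.30) Zfp658 fell and Zfp715 and Zfp719 rose, and in that at chr9:22055411-22307648 (median 0.16) none of 3 fell and 1 rose. In the run at chr7:29768552-30169750, 9 of 11 members fell while Zfp568 and Zfp382 rose. Zfp382, a KRAB repressor, had 128, 127 and 118 normalized counts in 0.3% and 184, 177 and 211 in 15% FBS with control siRNA (log2FC 0.61 ± 0.14 (adjusted p = 0.00085)). Its neighbour Zfp260, a cofactor of Gata4 in heart cells, had 2437, 2727 and 2599.5 and 1489, 1469.8 and 1398 (log2FC -0.83 ± 0.07 (adjusted p = 2.3e-12)). Neighbours thus changed in opposite directions there. Coordinates are those of GRCm38.

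Serum was then compared in Lap2-depleted cells. Of the members, 163 (58.4%) fell and 31 (11.1%) rose, where 14.9% of all tested genes fell and 18.3% rose (21.1% and 29.5% of those of 5 CPM or more). The median log2FC was -0.33 against 0.00 for all tested genes. The groups did not overlap in 156 of the 163 that fell. With total-count scaling, 219 fell and 13 rose. The 2 serum responses share no library. Across the 279 members their log2FC had a Pearson's r of 0.92 and a Spearman's rho of 0.90, and across the 10384 genes of 5 CPM or more an r of 0.84 and a rho of 0.61, given as descriptions over genes. In both populations 154 members fell, which is 80.2% of those that fell with control siRNA and 94.5% of those that fell with Lap2 siRNA. This was 55.2% of all members, where 7.72% of tested genes, and 11.2% of those of 5 CPM or more, fell in both. In both, 21 members rose (7.53%, where 10.2% of tested genes, or 1768 of the 10384 of 5 CPM or more, did). Opposite calls were made in 5 members, and 44 passed the test with neither siRNA. The log2FC was less negative with Lap2 siRNA in 169 of the 192 members that fell with control siRNA, and less negative with control siRNA in 32 of the 163 that fell with Lap2 siRNA. Each set was chosen by its own fall, which by itself tends to make the other response smaller, so neither count was read as a result.

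**Figure D5:**
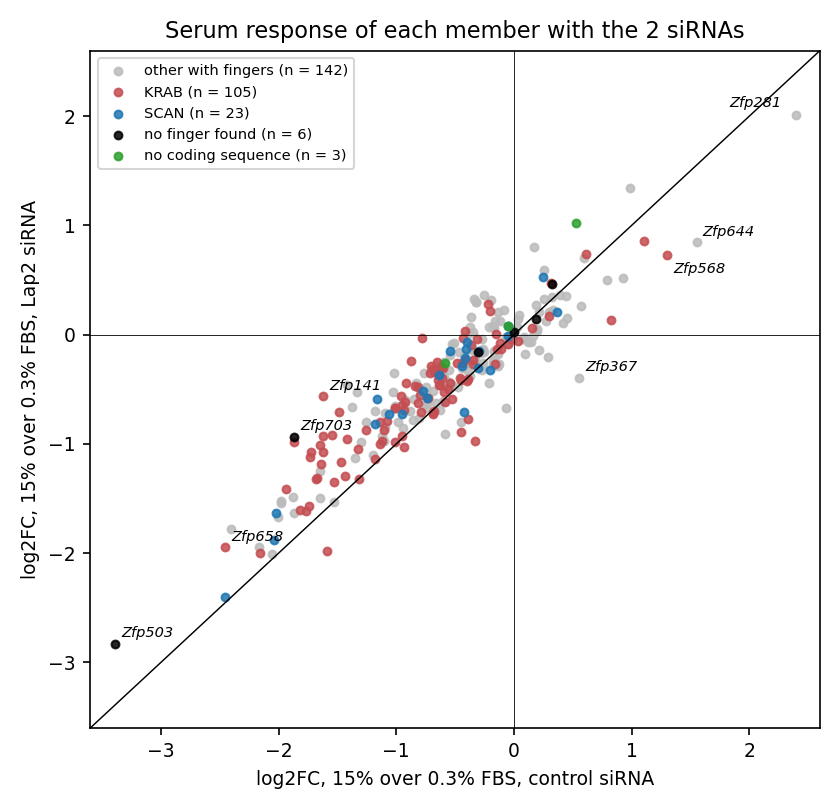
The log2FC of 15% over 0.3% FBS with control siRNA (x axis) and with Lap2 siRNA (y axis), a point per member, coloured by class, with the line of equal values. Most points lie below 0 on both axes, and Zfp703 (-1.87 and -0.93) is among those above the line.

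The genes that headed the falls in Lap2-depleted cells beside Zfp503 and Zkscan14 were Zfp775, Zfp763 and Zfp53. Zfp775 had 159.8, 118 and 159.7 normalized counts in 0.3% and 46.2, 22.3 and 40.6 in 15% FBS with Lap2 siRNA (log2FC -2.01 ± 0.23 (adjusted p = 1.4e-08)), and Zfp763 had 207, 265 and 205 and 64.7, 60.4 and 44.4 (-2.00 ± 0.16 (adjusted p = 3.9e-12)). With control siRNA both fell as well, with a log2FC of -2.06 ± 0.22 and -2.16 ± 0.15 on the log2 scale. Zfp53, a KRAB gene of the longest run on chromosome 17, had 168, 184 and 180.1 with control siRNA in 0.3% FBS, 53.2, 56.4 and 68.0 with control siRNA in 15% FBS, 301, 307 and 272 with Lap2 siRNA in 0.3% FBS and 86.6, 70.0 and 66.7 with Lap2 siRNA in 15% FBS. Its starved level was higher in every Lap2 siRNA library than in any control siRNA library, and its log2FC with serum was -1.98 ± 0.14 (adjusted p = 2e-13) with Lap2 siRNA and -1.59 ± 0.15 (adjusted p = 1.5e-10) with control siRNA. Among the genes that rose was Zfp469, listed as a noncoding RNA in the annotation, with 102, 108 and 123 in 0.3% and 176, 152 and 341 in 15% FBS (log2FC 1.02 ± 0.20 (adjusted p = 8.4e-05)), where replicate 3 in 15% FBS was far above the others and without it the log2FC was 0.55, still past the threshold.

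Lap2 depletion was compared with control siRNA in serum-starved cells. Here 66 members (23.7%) were lower and 26 (9.32%) higher with Lap2 siRNA, where 18.6% of all tested genes were lower and 17.8% higher, and the median log2FC was -0.05 against 0.01. Among genes of 5 CPM or more, 27.3% were lower and 26.8% higher, so that the members' lower share was near that of these genes and their higher share was smaller. This split rests on the scaling and on 1 library. Scaling to total counts, which raised the median of all tested genes by 0.11, gave 41 lower and 68 higher members. Leaving out replicate 1 of Lap2 siRNA in 0.3% FBS gave 44 higher members. The lower members included Zfp57, a KRAB protein that keeps DNA methylation at imprinted loci, with normalized counts of 1091, 964 and 968 with control siRNA in 0.3% FBS, 1129, 1099.9 and 1541 with control siRNA in 15% FBS, 469, 486 and 465 with Lap2 siRNA in 0.3% FBS and 677, 727 and 574 with Lap2 siRNA in 15% FBS. All Lap2 siRNA libraries were below all control siRNA libraries in each serum condition, and its log2FC was -1.09 ± 0.10 (adjusted p = 2.1e-10) in 0.3% and -0.93 ± 0.10 (adjusted p = 9.7e-09) in 15% FBS. Zfp512 had 998, 1045 and 1018 with control siRNA in 0.3% FBS, 614, 649.8 and 670.2 with control siRNA in 15% FBS, 573, 567 and 537 with Lap2 siRNA in 0.3% FBS and 320.0, 372 and 390.3 with Lap2 siRNA in 15% FBS and was also lower in both conditions (-0.87 ± 0.08 (adjusted p = 1.4e-10) and -0.83 ± 0.09 (adjusted p = 4.2e-09)). So were Zfp41 (-0.97 ± 0.09 (adjusted p = 1.5e-10) and -0.74 ± 0.12 (adjusted p = 8.8e-06)) and Zkscan17, which binds the methyltransferase Nsd1 (-0.79 ± 0.08 (adjusted p = 3e-09) and -0.56 ± 0.09 (adjusted p = 6e-06)). Zfp385a, a p53-induced cofactor also known as Hzf, had 1238, 1357 and 1211 with control and 651, 654 and 709.7 with Lap2 siRNA in 0.3% FBS (log2FC -0.92 ± 0.08 (adjusted p = 1e-11)).

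The member with the largest rise with Lap2 siRNA in 0.3% FBS was Zfp367, with normalized counts of 267, 288 and 244 with control siRNA in 0.3% FBS, 381, 369.9 and 427 with control siRNA in 15% FBS, 727, 682 and 653 with Lap2 siRNA in 0.3% FBS and 439, 445 and 681 with Lap2 siRNA in 15% FBS. In 0.3% FBS all 3 Lap2 siRNA libraries were far above the controls (log2FC 1.37 ± 0.12 (adjusted p = 5.1e-11)), while in 15% FBS the difference of 0.42 ± 0.12 (adjusted p = 0.0089) came to 0.16 without replicate 3 of Lap2 siRNA and was then no longer called. KRAB genes of the longest run on chromosome 17 followed. Zfp946 had 119, 167 and 189 with control and 300.2, 256 and 259 with Lap2 siRNA in 0.3% FBS, and 101, 117 and 94.8 and 179, 204 and 183 in 15% FBS (log2FC 0.78 ± 0.14 (adjusted p = 2.3e-05) and 0.85 ± 0.15 (adjusted p = 5.2e-05)). Zfp758 had 145, 182 and 167 and 274, 246 and 263 in 0.3% FBS (0.66 ± 0.13 (adjusted p = 0.00016)), and Zfp53 had a log2FC of 0.73 ± 0.13 (adjusted p = 1.6e-05). Their Lap2 siRNA libraries lay above the controls without overlap. On chromosome 17 as a whole, 7 of 35 members were higher with Lap2 siRNA in 0.3% FBS and 9 lower, and in 15% FBS 14 were higher and 2 lower. Of the 244 members on other chromosomes, 19 (7.79%) rose and 57 (23.4%) fell with Lap2 siRNA in 0.3% FBS. In 15% FBS it was 41 (16.8%) and 20 (8.20%), and the difference from chromosome 17 was not tested. Of genes of 5 CPM or more, 26.8% were higher and 27.3% lower in 0.3% FBS, so that the counts on chromosome 17 were not above these shares there. For 15% FBS these were 18.6% and 19.2%, and over all tested genes 11.4% and 12.1%. Zfp715 on chromosome 7 went from 523, 593 and 474 to 822, 806 and 729 in 0.3% FBS (log2FC 0.56 ± 0.09 (adjusted p = 3.1e-06)).

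In serum-stimulated cells, 55 members (19.7%) were higher and 22 (7.89%) lower with Lap2 siRNA, where 11.4% of all tested genes were higher and 12.1% lower. Among genes of 5 CPM or more, 18.6% were higher and 19.2% lower, so that the higher share of the members was near that of these genes and their lower share was smaller. The median log2FC was 0.07 against 0.02 for all tested genes. With total-count scaling, 88 were higher and 16 lower. In both serum conditions 11 members (3.94%) were higher and 14 (5.02%) lower with Lap2 siRNA, where 7.13% and 8.76% of tested genes, and 11.9% and 14.3% of those of 5 CPM or more, were. The largest rise was that of Zfp141, a KRAB gene with counts of 254, 282 and 285 with control siRNA in 0.3% FBS, 75.4, 108 and 83.6 with control siRNA in 15% FBS, 261, 326 and 287 with Lap2 siRNA in 0.3% FBS and 209, 197 and 185 with Lap2 siRNA in 15% FBS. Its stimulated libraries were all above the controls with Lap2 siRNA and its starved ones were mixed with them, and the log2FC was 1.15 ± 0.14 (adjusted p = 1.4e-07) in 15% and 0.09 ± 0.12 (adjusted p = 0.62) in 0.3% FBS. Zfp820, another KRAB gene, had 55.0, 55.4 and 42.4 with control and 116, 109 and 86.0 with Lap2 siRNA in 15% FBS (log2FC 1.01 ± 0.19 (adjusted p = 0.00012)), and Zfp334 had 425, 396 and 439 and 708, 842 and 869 (0.94 ± 0.09 (adjusted p = 7.2e-10)). Zfp61 was higher as well (0.88 ± 0.16 (adjusted p = 5.2e-05)). Among the lower members were Zfp605, with 135, 177 and 137 and 102, 85.9 and 86.0 (log2FC -0.72 ± 0.16 (adjusted p = 0.00073)), and Zfp644 (-0.68 ± 0.07 (adjusted p = 1.2e-09)).

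Whether the serum response itself differed between the siRNAs was tested by the interaction, that is the log2FC of serum with Lap2 siRNA minus that with control siRNA. It was positive in 41 members (14.7%) and negative in 9 (3.23%), where 7.09% of all tested genes had a positive and 6.51% a negative one, and its median was 0.16 against 0.02. Among genes of 5 CPM or more, 11.4% had a positive and 10.7% a negative interaction. Against these the members' positive share was not far above and their negative share was smaller. The positive count was 24 without replicate 2 of control siRNA in 0.3% FBS and 27 without replicate 1 or replicate 2 of Lap2 siRNA in 15% FBS. Without replicate 1 of Lap2 siRNA in 0.3% FBS the negative count was 20.

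Zfp141 had the largest positive interaction, 1.06 ± 0.19 (adjusted p = 9.9e-05), with a serum log2FC of -1.62 ± 0.14 with control siRNA and -0.56 ± 0.12 with Lap2 siRNA. Zfp467, which favours adipocyte over osteoblast differentiation, had 547, 597 and 598 with control siRNA in 0.3% FBS, 232, 204 and 214 with control siRNA in 15% FBS, 368, 331 and 401 with Lap2 siRNA in 0.3% FBS and 259.9, 296 and 243 with Lap2 siRNA in 15% FBS. It fell in both populations, the starved level was lower in every Lap2 siRNA library, and the interaction was 0.96 ± 0.15 (adjusted p = 1.4e-05). The same pattern was seen in Zfp703, with an interaction of 0.94 ± 0.13 (adjusted p = 2.3e-06). Zfp334 had 782, 671 and 709 with control siRNA in 0.3% FBS, 425, 396 and 439 with control siRNA in 15% FBS, 774, 878 and 817 with Lap2 siRNA in 0.3% FBS and 708, 842 and 869 with Lap2 siRNA in 15% FBS. It fell with control siRNA (-0.78 ± 0.09 (adjusted p = 1.5e-08)) and had a log2FC of -0.03 ± 0.09 with Lap2 siRNA, where the groups overlapped, and the interaction was 0.75 ± 0.12 (adjusted p = 4.4e-05). Zfp964 (0.89 ± 0.26 (adjusted p = 0.016)) and Zfp956 (0.80 ± 0.25 (adjusted p = 0.031)) had positive interactions too, but single libraries decided both calls. That of Zfp964 was lost without replicate 2 of control siRNA in 0.3% FBS (0.80), replicate 2 of Lap2 siRNA in 0.3% FBS (0.75) or replicate 1 or 2 of Lap2 siRNA in 15% FBS (0.80 in each case). That of Zfp956 was lost, at 0.61 to 0.82, without any library other than replicate 3 of control siRNA in 15% FBS, of Lap2 siRNA in 0.3% FBS or of Lap2 siRNA in 15% FBS. The negative ones were led by Zfp367 (-0.95 ± 0.17 (adjusted p = 0.00014)), which rose with serum with control siRNA (log2FC 0.55 ± 0.13) and fell with Lap2 siRNA (-0.39 ± 0.12, -0.65 without replicate 3 of Lap2 siRNA in 15% FBS, and not called without replicate 1 or 2 there, at -0.28 and -0.29), followed by Zfp644 (-0.70 ± 0.10 (adjusted p = 2.2e-06)) and Zfp715 (-0.69 ± 0.12 (adjusted p = 9.9e-05)). Zfp715, a KRAB gene, had 523, 593 and 474 with control siRNA in 0.3% FBS, 939, 874 and 1015 with control siRNA in 15% FBS, 822, 806 and 729 with Lap2 siRNA in 0.3% FBS and 802, 864 and 915 with Lap2 siRNA in 15% FBS, so that it rose with control siRNA (0.83 ± 0.09 (adjusted p = 2e-09)) and had a log2FC of 0.13 ± 0.09 with Lap2 siRNA. Zfp101 (-0.64 ± 0.14 (adjusted p = 0.0019)) fell more with Lap2 siRNA, and Zfp692 (-0.61 ± 0.18 (adjusted p = 0.021)) lost its interaction without replicate 2 of control siRNA in 0.3% FBS (-0.51), replicate 3 of control siRNA in 15% FBS (-0.53) or replicate 2 of Lap2 siRNA in 0.3% FBS (-0.51) or 15% FBS (-0.59).

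Members with a known role moved in several directions. Zfp521, an inhibitor of Ebf1 that holds progenitors back from the adipocyte fate, had 2357, 2855 and 2460.3 with control siRNA in 0.3% FBS, 2210.4, 2263 and 1943 with control siRNA in 15% FBS, 1484, 1465 and 1713 with Lap2 siRNA in 0.3% FBS and 2130.0, 1964 and 1889 with Lap2 siRNA in 15% FBS. In 0.3% FBS all Lap2 siRNA libraries were below the controls (log2FC -0.72 ± 0.08 (adjusted p = 4.1e-09)), and with serum it rose in Lap2-depleted cells (0.36 ± 0.08 (adjusted p = 0.00046)), a call that was lost with scaling to total counts (0.13). Zfp131, a partner of Kaiso, rose with serum with control siRNA (log2FC 0.93 ± 0.08 (adjusted p = 5.5e-12)) and less with Lap2 siRNA (0.52 ± 0.08 (adjusted p = 1.3e-06)). Zfp451, a SUMO ligase, rose with a log2FC of 0.39 ± 0.06 (adjusted p = 6.3e-06) and 0.36 ± 0.06 (adjusted p = 2.3e-05), the latter not called with scaling to total counts (0.13). Zfp217, a partner of the corepressor CtBP, fell with serum with a log2FC of -0.45 ± 0.09 (adjusted p = 0.00024) and -0.80 ± 0.09 (adjusted p = 1.9e-08). So did the autophagy repressor Zkscan3, with -0.43 ± 0.09 (adjusted p = 0.0002) and -0.71 ± 0.09 (adjusted p = 5.8e-08), and Zkscan1, with -0.74 ± 0.08 (adjusted p = 1.9e-09) and -0.58 ± 0.08 (adjusted p = 2.2e-07). Zkscan8 (-0.81 and -0.77), Zscan29 (-0.64 and -0.37), Zfp146 (-0.42 and -0.26) and Zfp207 (-0.27 and -0.30) fell in both populations too. Zfp143, which binds many promoters, and Zscan26 were called lower with Lap2 siRNA (-0.44 ± 0.12 (adjusted p = 0.0032) and -0.32 ± 0.08 (adjusted p = 0.0025)), with -0.21 and -0.20 with control siRNA, and neither passed the test of the interaction. Some values did not pass the test with either siRNA. They were those of Zfp148, a relative of Zfp281 (-0.07 ± 0.07 and -0.03 ± 0.07), Zfp106 (0.04 ± 0.07 and 0.15 ± 0.07), Zfp706 (-0.07 ± 0.07 and -0.02 ± 0.07), Zscan21 (-0.05 ± 0.08 and 0.08 ± 0.09), Zfp318, which acts on IgD expression in B cells (-0.21 ± 0.09 and 0.07 ± 0.09), and Zfp809, a KRAB protein that silences retroviruses (0.16 ± 0.11 and 0.06 ± 0.11). Of the most abundant members per length, Zfp91 had a log2FC of 0.21 ± 0.07 (adjusted p = 0.012) and 0.21 ± 0.07 (adjusted p = 0.014), which scaling to total counts brought to 0.0080 and -0.024 and which were lost without some single libraries (at 0.18 to 0.19 without replicate 1 of control siRNA in 0.3% FBS or replicate 1 or 2 in 15% FBS, and at 0.13 and 0.19 without replicate 1 of Lap2 siRNA in 0.3% FBS or replicate 2 in 15% FBS). Zfp637 fell with a log2FC of -0.74 ± 0.08 (adjusted p = 4.7e-09) and -0.63 ± 0.08 (adjusted p = 1.1e-07), and Zfp740 with -0.26 ± 0.06 (adjusted p = 0.00095) with control siRNA. Zfp423, Zscan10 and Zscan4c were below the limit on the mean, at 0, 0.0326 and 0 CPM.

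The proteins that KRAB domains work through were looked at beside them, as a list of 24 genes of the Trim28 corepressor and heterochromatin. With serum, 4 rose and 4 fell with control siRNA (16.7% each), where 15.6% and 13.9% of all tested genes did, and 25.2% and 19.8% of those of 5 CPM or more. With Lap2 siRNA 5 rose (20.8%) and 7 fell (29.2%), where 18.3% and 14.9% of all tested genes did, and 29.5% and 21.1% of those of 5 CPM or more. The largest changes with control siRNA were those of Atf7ip, the partner of Setdb1 (log2FC -0.71 ± 0.08 (adjusted p = 7.2e-09)), the histone chaperone Daxx (-0.43 ± 0.09 (adjusted p = 0.00027)), Pphln1 of the HUSH complex (0.38 ± 0.08 (adjusted p = 0.00043)) and the remodeller Atrx (0.30 ± 0.07 (adjusted p = 0.0011)). Trim28 itself was called lower with serum, with a log2FC of -0.18 ± 0.06 (adjusted p = 0.016) with control siRNA and -0.16 ± 0.06 (adjusted p = 0.038) with Lap2 siRNA. In Lap2-depleted cells, Uhrf1, which guides maintenance methylation, fell with serum (-0.80 ± 0.08 (adjusted p = 1.3e-09)), as did Atf7ip (-0.58 ± 0.08 (adjusted p = 5e-07)) and the methyltransferase Dnmt1 (-0.46 ± 0.08 (adjusted p = 1e-05)). In 0.3% FBS, 8 genes of the list were higher and 6 lower with Lap2 siRNA, led by Daxx (-0.83 ± 0.09 (adjusted p = 6.2e-09)), Dnmt1 (0.74 ± 0.08 (adjusted p = 1.3e-09)), Uhrf1 (0.63 ± 0.08 (adjusted p = 1.2e-07)) and Morc2a (-0.51 ± 0.07 (adjusted p = 3.1e-07)), and in 15% FBS 2 were higher and 4 lower. Of all tested genes, 17.8% were higher and 18.6% lower in 0.3% FBS (26.8% and 27.3% of those of 5 CPM or more). For 15% FBS the shares were 11.4% and 12.1% (18.6% and 19.2%).

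Promoters were read because the members moved together, as windows of 300 bases (250 before and 50 after a start) from RefSeq on GRCm38.p6. Windows were found for 230 of the 279 members by symbol, 277 in all as some genes have several starts, and short motifs were searched on both strands. A match is a description of letters in the window. The ETS site CCGGAA was in 36.1% of the members' windows, against 14.9% of all 32851 windows and 29.2% of the 10074 windows of other genes of 5 CPM or more. The CCAAT box (CCAAT) was in 47.3%, against 37.4% and 37.9%, and the GC box (GGGCGG) in 47.3%, against 35.7% and 66.4%. Of windows of members that fell with control siRNA, 52.7% held CCAAT, 42.5% GGGCGG and 40.3% CCGGAA. Of the 30 windows of members that rose, 10, 17 and 12 did. Of the 61 windows of members not called, 37.7%, 57.4% and 21.3% did, so that the ETS site was in like shares of the windows of members that fell and rose and in a smaller share of the rest. No test was made over windows. The other motifs were rarer. The YY1 site AANATGGCG was in 7.22% of the members' windows, against 2.38% of all windows and 5.61% of those of other genes of 5 CPM or more, and the NRF1 site GCGCATGCG in 5.42%, against 1.75% and 3.88%. The CRE TGACGTCA was in 2.89%, which is above the 1.79% of all windows and below the 3.24% of other genes of 5 CPM or more. The AP-1 site TGANTCA was in 3.97%, against 7.81% and 4.65%, and the CArG box, the site of SRF, in 1.08%, against 1.63% and 1.29%. The E-box CACGTG was in 6.50%, against 7.15% and 10.5%. The Egr site GCGNGGGCG was in 6.14%, near the 5.55% of all windows and below the 11.2% of other genes of 5 CPM or more. The Egr site and the GC box can overlap, since both hold GGGCG, and the NRF1 site can match both strands at once.

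The windows of 4 members named above are shown, 5' to 3' on the gene's strand, with matches to these motifs in capitals. In Zfp503 (chr14:21989552-21989851, minus strand) none of the motifs was matched. The others are Zfp658 (chr7:43562120-43562419, plus strand), with a CCAAT box read on the other strand, an NRF1 site and a GC box, Zfp53 (chr17:21488738-21489037, plus strand), with a GC box, an ETS site and a CCAAT box, and Zfp281 (chr1:136624651-136624950, plus strand), with a CCAAT box and 4 GC boxes.
Zfp503: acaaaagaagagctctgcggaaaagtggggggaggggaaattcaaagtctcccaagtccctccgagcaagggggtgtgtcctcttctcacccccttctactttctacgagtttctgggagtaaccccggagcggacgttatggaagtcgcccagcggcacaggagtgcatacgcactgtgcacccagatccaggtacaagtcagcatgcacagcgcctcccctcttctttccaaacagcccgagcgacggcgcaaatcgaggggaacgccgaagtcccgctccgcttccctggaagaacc
Zfp658: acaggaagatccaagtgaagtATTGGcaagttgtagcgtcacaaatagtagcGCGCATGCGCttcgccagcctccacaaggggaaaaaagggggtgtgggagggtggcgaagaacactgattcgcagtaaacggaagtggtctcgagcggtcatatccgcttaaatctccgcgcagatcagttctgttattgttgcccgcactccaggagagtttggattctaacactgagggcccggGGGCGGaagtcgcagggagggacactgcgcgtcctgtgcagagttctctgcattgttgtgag
Zfp53: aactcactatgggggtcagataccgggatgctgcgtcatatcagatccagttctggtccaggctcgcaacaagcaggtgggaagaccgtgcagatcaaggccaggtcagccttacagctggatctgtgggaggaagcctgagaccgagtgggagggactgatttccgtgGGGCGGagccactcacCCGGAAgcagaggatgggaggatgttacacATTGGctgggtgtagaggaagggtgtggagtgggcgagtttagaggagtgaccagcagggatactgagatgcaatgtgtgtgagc
Zfp281: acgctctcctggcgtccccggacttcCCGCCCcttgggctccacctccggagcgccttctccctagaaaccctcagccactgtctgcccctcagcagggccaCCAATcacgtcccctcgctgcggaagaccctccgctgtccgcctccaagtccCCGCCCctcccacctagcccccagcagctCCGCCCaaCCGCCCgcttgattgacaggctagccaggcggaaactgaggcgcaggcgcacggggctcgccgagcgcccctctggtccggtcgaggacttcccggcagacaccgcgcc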

How the data were processed

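The deposited files hold counts of reads per gene in 12 RNA-seq libraries, which the authors made from total RNA depleted of ribosomal RNA (Ribo-Zero, NEBNext Ultra Directional libraries) with TopHat2 for alignment to mm10 and HTSeq for counting. The counts were not normalized. The submitters' processing notes name TopHat2, HTSeq, DESeq2, mm10 and GRCm38, without versions. Whether counting used strand, and how reads with several matches were counted, is not given in the sources used here. The time of 45 min is taken from the paper. All 49671 genes were listed in each file, and 99.3% had a symbol in the reference tables.

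The counts were analysed with edgeR 4.0.16 under R 4.3.3. After TMM normalization, a quasi-likelihood model with a mean per group (glmQLFit) was fitted to 18668 genes, those counted more than once (above 1) in 3 or more of the libraries. Contrasts were tested with glmQLFTest, and p-values were adjusted after Benjamini and Hochberg over all genes fitted, with a threshold of 0.05. To give normalized counts, each count was divided by its TMM-scaled library size and set to the mean of these sizes. The TMM factors averaged 1.04, 0.900, 1.12 and 0.955 in control siRNA in 0.3% and 15% FBS and Lap2 siRNA in 0.3% and 15% FBS. Alternatives were DESeq2 1.42.0, total-count and upper-quartile scaling, other filters and limits on the mean, fits of the compared groups alone, the replicate number as a block, each library left out, and members without shared windows or without an overlap on the opposite strand. The looser KRAB pattern, 5 CPM or more in every group and no limit on the mean were added after seeing the data.

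Fingers were matched as C-x(2,4)-C-x(12)-H-x(3,5)-H in translated GENCODE M21 coding sequences, since no protein table was used here. The KRAB pattern requires EW at the start of the box and fixes several residues after it. Windows of 50 bases were compared between the exons of all genes. Tables were handled in pandas 2.3.3 and numpy 2.4.6, and plots drawn in matplotlib 3.10.9.

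Named genes are, for each comparison, the 5 called members (adjusted p under 0.05, no overlap of the groups) with the largest rise and the 5 with the largest fall, the 10 with the highest CPM per kb, those at the limit on the mean, members with known roles, and the 4 largest called changes of each list. Sentences on neighbouring genes and runs name further members chosen after their values were seen. The members and lists were chosen with earlier results of these data known, so no count over them is independent support. Fold changes and p-values of the authors' own comparisons were not used.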

Additional observations from a re-analysis of the deposited data

Results flagged for a closer look

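The serum response of 19 of the named members differed between the siRNAs by the test of the difference itself, edgeR's interaction term, whose log2 value (± SE) is that with Lap2 siRNA minus that with control siRNA. The 5 largest positive and 5 largest negative interactions were among the rules for naming a gene, so the count of 19 is not a result. Of all tested genes, 7.09% had a positive and 6.51% a negative interaction (11.4% and 10.7% of those of 5 CPM or more). Positive values were found for Zfp141 (1.06 ± 0.19, adjusted p = 9.9e-05), Zfp467 (0.96 ± 0.15, adjusted p = 1.4e-05), Zfp703 (0.94 ± 0.13, adjusted p = 2.3e-06), Zfp964 (0.89 ± 0.26, adjusted p = 0.016), Zfp956 (0.80 ± 0.25, adjusted p = 0.031), Zfp334 (0.75 ± 0.12, adjusted p = 4.4e-05), Zfp61 (0.62 ± 0.19, adjusted p = 0.026), Zfp385a (0.62 ± 0.11, adjusted p = 7.9e-05), Zfp521 (0.62 ± 0.11, adjusted p = 0.00013), Zfp503 (0.56 ± 0.16, adjusted p = 0.015) and Zfp260 (0.39 ± 0.09, adjusted p = 0.0034). Negative values were found for Zfp367 (-0.95 ± 0.17, adjusted p = 0.00014), Zfp644 (-0.70 ± 0.10, adjusted p = 2.2e-06), Zfp715 (-0.69 ± 0.12, adjusted p = 9.9e-05), Zfp101 (-0.64 ± 0.14, adjusted p = 0.0019), Zfp692 (-0.61 ± 0.18, adjusted p = 0.021), Zfp568 (-0.57 ± 0.12, adjusted p = 0.0014), Zfp131 (-0.41 ± 0.11, adjusted p = 0.0078) and Zfp281 (-0.39 ± 0.10, adjusted p = 0.0049). All of the first set except Zfp503, Zfp61, Zfp964 and Zfp956, and all of the second except Zfp692, stayed past the threshold with each library left out in turn. The value of Zfp503 passed it neither with DESeq2 (0.54) nor without replicate 3 of control siRNA in 15% FBS (0.45), replicate 1 (0.46) or replicate 2 (0.43) of Lap2 siRNA in 15% FBS. That of Zfp61 was lost, at 0.50 to 0.60, without replicate 3 of control siRNA or of Lap2 siRNA in 0.3% FBS, replicate 1 or 2 of control siRNA in 15% FBS, or replicate 2 or 3 of Lap2 siRNA in 15% FBS. Those of Zfp964, Zfp956 and Zfp692 are given above with the libraries they rest on.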

How the results depend on the processing

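The counts of members that fell with serum with control siRNA (192) kept within 1.5 times of this value under every alternative run, as did those lower with Lap2 siRNA in 15% FBS (22). With scaling to total counts, the members that rose with serum numbered 15 for the control siRNA and 13 for Lap2, those with Lap2 siRNA in 0.3% FBS 68 higher and 41 lower, and those higher in 15% FBS 88. With upper-quartile normalization, 19 and 20 rose with serum. Total-count scaling shifted all tested genes, by their median log2FC, by -0.21 and -0.23 for serum with control and Lap2 siRNA and by 0.11 and 0.09 for Lap2 siRNA in 0.3% and 15% FBS, and upper-quartile normalization moved the serum values by -0.10 and -0.11. With a limit of 10 CPM on the mean, 107 of 210 members fell with serum with Lap2 siRNA. The median log2FC of the members minus that of all tested genes was -0.52 for serum with control siRNA, -0.61 with a limit of 1 CPM (350 genes), -0.36 with a limit of 10 CPM and -0.43 for the 219 members that share under 10% of their windows. With Lap2 siRNA it was -0.33, and -0.45 and -0.26 with these limits. With 5 CPM or more in every group (226 genes) these medians were -0.37 and -0.26, and with no limit (386 genes) -0.61 and -0.45. Leaving out each library in turn gave -0.52 to -0.48 and -0.37 to -0.32 for these medians and 0.14 to 0.17 for the interaction. It gave 23 to 44 members higher with Lap2 siRNA in 0.3% FBS, and for the interaction 24 to 40 positive and 7 to 20 negative members. The log2FC of Zfp91 for serum with Lap2 siRNA, 0.21, turned to -0.0242 with scaling to total counts, since that scaling lowers all serum values. DESeq2 with its size factors gave 190 lower and 30 higher members for serum with control siRNA, and for Lap2 siRNA 165 and 28.

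Over the 167 calls of named genes, 3191 of 3321 alternative values were past the threshold in the same direction, 129 were in the same direction and not past it, and 1 had the other sign. The replicate numbers follow only the order of the titles within a group, and the titles pair no libraries between groups. Same-numbered libraries did not deviate together (correlations of -0.034 to 0.043 between deviations from the group means). Of 12 libraries, 4 correlated best with a library of their own number, so the numbers were not taken as pairs. With the replicate number as a block, 195 members fell and 28 rose with serum with control siRNA, 163 and 30 with Lap2 siRNA, and the interaction was positive in 43 and negative in 9. The precision is set by 3 libraries per group and by depth, with a median SE of 0.10 for the log2FC of a member with serum.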

Other observations

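The Zbtb genes, most of whose proteins carry C2H2 fingers beside a BTB domain, were counted in the same way. Of 35 genes with such a symbol and a mean of 5 CPM or more, 2 are named as opposite-strand genes (Zbtb8os and the antisense RNA Zbtb11os1) and were left out after seeing the data. Of the other 33, 12 fell (36.4%) and 10 rose (30.3%) with serum with control siRNA. Among genes of 5 CPM or more, which were not matched to the Zbtb genes by level, 19.8% fell and 25.2% rose. With Lap2 siRNA 11 fell and 11 rose (33.3% each), where 21.1% of genes of 5 CPM or more fell and 29.5% rose. No test was made over the list or against the Zfp, Zkscan and Zscan genes. The largest changes with control siRNA were those of Zbtb14 (-1.44 ± 0.11 (adjusted p = 3.5e-13)), Zbtb5 (-1.40 ± 0.12 (adjusted p = 1.2e-11)), Zbtb45 (-1.35 ± 0.10 (adjusted p = 5e-13)) and Zbtb10 (1.23 ± 0.11 (adjusted p = 3.6e-11)) on the log2 scale by edgeR. Zbtb10, a repressor that binds GC-rich sequences, had 188, 243 and 219 normalized counts in 0.3% FBS and 516, 505 and 512 in 15% FBS with control siRNA, against 217, 268 and 309 and 736, 761 and 716 with Lap2 siRNA. Its log2FC with Lap2 siRNA was 1.48 ± 0.11 (adjusted p = 2.3e-13), and in 15% FBS it was higher with Lap2 siRNA than with control siRNA (0.53 ± 0.10 (adjusted p = 0.00012)). Lap2 depletion in 0.3% FBS gave 9 higher (27.3%) and 5 lower (15.2%) Zbtb genes, where 26.8% of genes of 5 CPM or more were higher and 27.3% lower. In 15% FBS it gave 10 (30.3%) and 2 (6.06%), where 18.6% and 19.2% were.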
